A study of Mus musculus with 18 samples.

Results

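The interferon-induced genes are a set of 43 mouse genes that cells switch on when an interferon reaches its receptor, listed by symbol as known targets of the response, without a rule on their values in these arrays. Of the 43, 42 had at least 1 probe carrying their symbol, with 67 probes between them, out of 17658 genes measured. Ifi44 was not analysed here. The set was followed through the retinas of C57BL/6J and DBA/2J mice, in controls, 2 days after optic nerve crush and 5 days after it, which makes 6 groups of 3 arrays. The crush, a brief squeeze of the optic nerve behind the globe, injures the axons of the retinal ganglion cells. All mice were labelled male and 60 to 90 days old, no transgene or drug was named for any group, and every array carried RNA pooled from 2 retinas, labelled as taken from both eyes, so an array stands for a pool and not for 1 eye. Each probe was expressed on the scale of the study, which sets the mean log2 intensity of every array to 8 and the SD to 2. A step of 1 unit on that scale was 0.56 log2, or 1.47-fold, for the median array.

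Interferons are secreted proteins. Type I interferons, a large family of alpha forms and a beta form, and type II interferon (Ifng) bind different receptors, whose Janus kinases pass the signal on. The complex ISGF3, which holds Stat2 and Irf9, then binds the interferon-stimulated response element (ISRE) in promoters, while the type II signal reaches genes through the gamma-activated site (GAS). The genes switched on in this way include effectors that block viral entry, translation or release, sensors of foreign nucleic acid, large GTPases, and factors that amplify or damp the signal. In the nervous system microglia and astrocytes are known to mount this response, and it is also known from injury without infection.

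The 32 members with an entry in the RefSeq promoter table (mouse build GRCm38.p6, 250 bases before to 50 bases after the transcription start) were searched for both elements, to show what the set shares in sequence beyond its name. The core of the ISRE, searched as GAAANNGAAA and, for the other strand, TTTCNNTTTC, lay in the windows of 16 of the 32 members (50%), against 4.0% of all 27025 genes with a window. It lay in 3.44% of the 32851 single windows. The GAS, searched as TTCNNNGAA, which reads the same on both strands, lay in 9 of the 32 members (28.1%), against 9.6% of all genes and 8.3% of all windows. Neighbouring ISRE cores can share bases, and in Bst2 and Ifitm3 a GAS match also overlapped an ISRE core. The 6 stretches shown here hold a core and belong to 5 members whose brightest probe was called higher after crush and to Ifit3, of which only dimmer probes were called. Each is written 5′ to 3′ on the gene's strand and was taken 30 bases either side of the cores without passing the start, with the cores in capitals.
Isg15, chr4:156200845-156200926, minus strand: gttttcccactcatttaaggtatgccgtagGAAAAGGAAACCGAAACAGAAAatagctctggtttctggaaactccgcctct
Irgm1, chr11:48871421-48871480, minus strand: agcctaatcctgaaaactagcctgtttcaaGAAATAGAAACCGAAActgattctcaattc
Bst2, chr8:71537557-71537632, minus strand: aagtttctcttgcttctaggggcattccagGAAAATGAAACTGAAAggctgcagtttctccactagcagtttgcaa
Gbp3, chr3:142559969-142560043, plus strand: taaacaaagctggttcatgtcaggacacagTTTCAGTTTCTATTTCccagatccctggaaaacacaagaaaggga
Rsad2, chr12:26456533-26456602, minus strand: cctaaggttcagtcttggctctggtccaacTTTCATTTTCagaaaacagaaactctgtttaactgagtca
Ifit3, chr19:34583343-34583446, plus strand: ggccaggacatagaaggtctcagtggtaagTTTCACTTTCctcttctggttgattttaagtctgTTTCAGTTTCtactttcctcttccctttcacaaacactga
Isg15 carried 3 cores that ran into each other from base -78 to base -57 before its start, and Irgm1, Bst2 and Gbp3 carried a run of 2. A match is a description of these letters and not a measured binding site, and a window without a match says nothing about the factor. By the brightest probe, cores lay in the windows of 6 of the 12 members called higher after crush (50%), the 5 shown and Ifitm3, and of 10 of the 19 other measured members (52.6%), Ifit3 among them.

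A few arrays stood apart, as was seen at genes known to differ between the strains or sexes. The third array of C57BL/6J at 2 days and the first of DBA/2J at 2 days lay near the other strain at Glo1 (17.7 and 16.3 units, where the C57BL/6J controls read 15.5 to 15.9 and the DBA/2J controls 17.4 to 17.9), and likewise at Alad and Gpnmb. They are called here by their labels, and counts that rest on 2 days are given with and without both. The first C57BL/6J control array read 11.3 units for Xist and 7.02 for the Y-linked Eif2s3y, where the other 17 arrays read 6.89 to 7.55 and 12.3 to 14.0. Both values go against the male label of that array, which was kept in the main fit. The retina was clear in every array from photoreceptor markers, whose mean was 14.6 to 16.1 units. The lowest of these means, 14.6 and 14.7, were those of the second DBA/2J array at 5 days and the first C57BL/6J array at 2 days, the arrays with the highest mean over the interferon-induced genes in their groups. The spread of an array's signal, its 95th percentile over its 5th, was 13.3 and 12.9 on these arrays and 11.1 to 15.4 on the C57BL/6J arrays at 5 days, against 8.53 to 10.2 in the controls of both strains. The part of either measure in the results was not tested. Lens markers ranged from 7.05 to 15.2 units on the C57BL/6J arrays, with 8.92 to 15.2 in the controls and 7.05 to 8.59 at 5 days, and their part in the results was not tested. The words rose and fell are kept for genes whose adjusted p in limma, from 1 fit over all 18 arrays, was below 0.03, the threshold of the study.

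In C57BL/6J mice the interferon-induced genes were on average higher 5 days after crush on all 3 arrays. The mean over the 42 members was 7.75, 7.66 and 7.64 units in the controls, 8.06, 7.63 and 7.54 units at 2 days, and 8.83, 8.43 and 8.61 units at 5 days. Every 5-day array was above every control and every 2-day array. Of the 42, 8 rose by the test, Gbp3, Ifitm3, Irf9, Isg15, Oasl2, Rsad2, Samd9l and Usp18, and none fell, while 0.923% of all genes were called higher. For 22 of 42 members the lowest array at 5 days exceeded the highest control, against 9.58% of all genes. The median difference was 0.62 units over the members and -0.08 over all genes. It was above 0 for 30 of the 42 members and for 38.9% of all genes. The 8 calls needed the full set of arrays. Without any 1 of the 3 control arrays, or without the first array at 5 days, limma called 0 members, and without the second or the third array at 5 days it called 3 (Irf9, Isg15 and Usp18) and 2 (Irf9 and Isg15). The difference of Ifitm3 was 3.45 to 3.72 units in those 6 fits. SAM, the method of the study, called 15 members. Shares of all genes are not given here for SAM or for the fits without 1 array, so these counts have no background beside them.

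**Figure D1:**
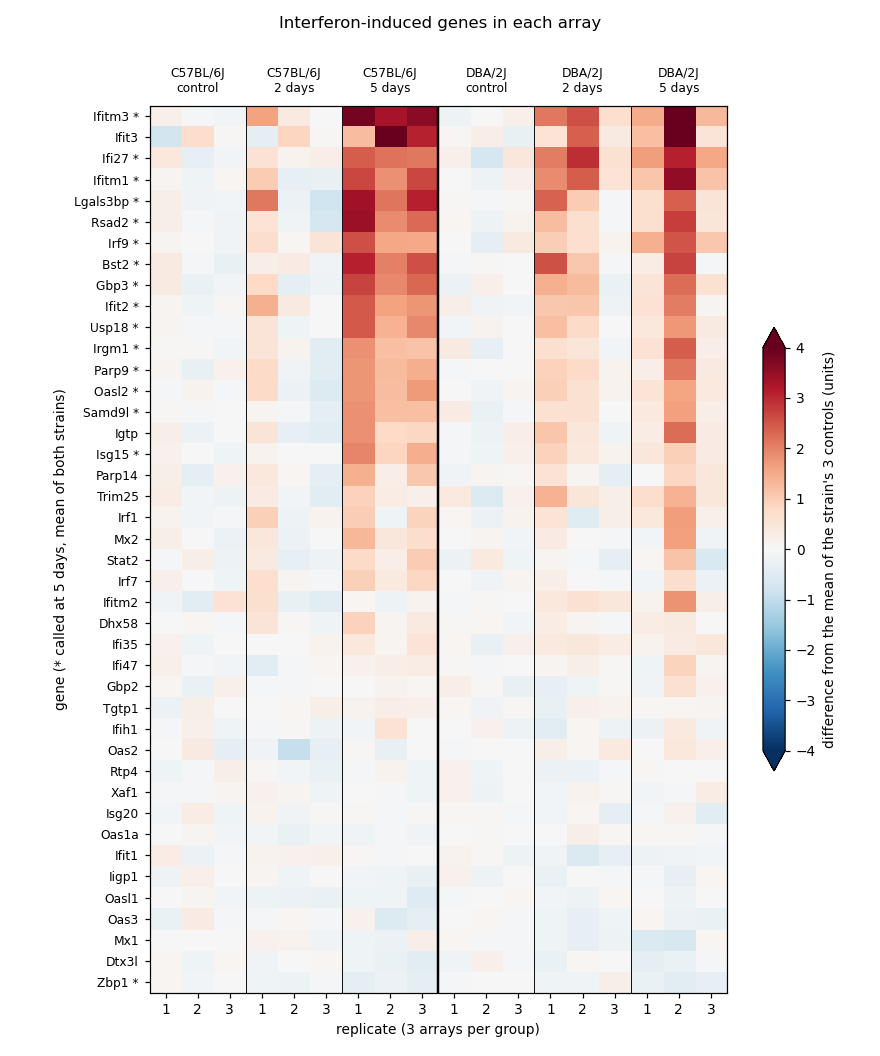
Each row is 1 of the 42 interferon-induced genes and each column 1 array; the colour is the difference in units from the mean of the 3 controls of that strain, and colours end at 4 units in either direction. The red block of the upper rows fills all 3 C57BL/6J arrays at 5 days, while in DBA/2J it is darkest in the second array at 5 days and paler in the first and second arrays at 2 days.

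Averaged over both strains, 15 of the 42 members rose at 5 days and 1, Zbp1, fell, where 2.81% of all genes were called higher and 3.56% lower. The members that rose were Bst2, Gbp3, Ifi27, Ifit2, Ifitm1, Ifitm3, Irf9, Irgm1, Isg15, Lgals3bp, Oasl2, Parp9, Rsad2, Samd9l and Usp18. Without the pair of 2-day arrays close to the other strain the count was 14 higher and 1 lower. Leaving out 1 array of the groups compared gave 10 to 16 called members, with 10 without the first or the third C57BL/6J control or the first or second DBA/2J control. Fold changes below are from quantile-normalized intensities, since a unit is a different fold on each array. RNA of whole retinas cannot tell more cells of a type from more RNA per cell.

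Membrane proteins that hinder viral entry and release were among the members with the widest differences. Ifitm3, which traps entering virus in endosomes, read 8.86, 8.60 and 8.55 units in C57BL/6J controls, 10.3, 9.03 and 8.65 at 2 days and 12.5, 11.96 and 12.3 at 5 days. In DBA/2J it read 8.10, 8.28 and 8.51 units in the controls, 10.4, 10.9 and 8.98 at 2 days and 9.79, 12.8 and 9.59 at 5 days. Controls and 5 days did not overlap in either strain, and the second DBA/2J array at 5 days was far above its 2 companions. Ifitm3 rose by 3.58 units (SE 0.67, adjusted p = 0.0144) in C57BL/6J, or 3.92-fold, and by 3.00 units (SE 0.48, adjusted p = 0.00228) over both strains. A second Ifitm3 probe was called too, at 3.12 units (adjusted p = 0.0259) in C57BL/6J. Ifitm1, a close relative, read 9.71, 9.41 and 9.65 units in C57BL/6J controls, 10.6, 9.28 and 9.29 at 2 days and 12.2, 11.4 and 12.3 at 5 days, and in DBA/2J 8.92, 8.73 and 9.13 units in the controls, 10.8, 11.4 and 9.46 at 2 days and 10.0, 12.5 and 10.1 at 5 days. Its pattern followed that of Ifitm3, with no overlap at 5 days and the second DBA/2J array on top, and it rose by 2.16 units (SE 0.42, adjusted p = 0.00708) over both strains. Only the brightest of 4 Ifitm1 probes was called, the other 3 staying under 8 units on every array. Ifitm genes are similar in sequence, and how far 1 probe reads another member was not tested. The brightest Ifitm2 probe read 9.35, 9.06 and 9.40 units at 5 days in C57BL/6J, inside the range of its controls (8.83 to 9.85), and was not called. In DBA/2J it read 8.88, 10.5 and 8.98 units at 5 days, above its controls (8.71 to 8.81). A dimmer Ifitm2 probe read 7.74, 7.85 and 8.54 units in C57BL/6J controls and 8.51, 8.795 and 9.56 at 5 days. In DBA/2J the dimmer probe read 7.23, 7.25 and 7.31 units in the controls and 7.96, 9.82 and 7.815 at 5 days.

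Bst2, or tetherin, holds budding virus at the cell surface. It read 7.80, 7.39 and 7.18 units in C57BL/6J controls, 7.71, 7.78 and 7.31 at 2 days and 10.6, 9.49 and 10.0 at 5 days. For DBA/2J, Bst2 read 7.21, 7.34 and 7.31 units in the controls, 9.83, 8.36 and 7.21 at 2 days and 7.59, 9.99 and 7.22 at 5 days. The C57BL/6J arrays at 5 days thus stood clear of all controls. In DBA/2J the second array at 5 days reached that level, as did the first at 2 days, which lay near C57BL/6J at Glo1. The second DBA/2J array at 2 days, at 8.36 units, lay above the controls without reaching that level, and the rest read 7.21 to 7.59 units. The difference over both strains was 1.78 units (SE 0.45, adjusted p = 0.0281), and in C57BL/6J alone 2.57 units missed the threshold (adjusted p = 0.0467). Of 12 fits that left out 1 array, the call of Bst2 over both strains was kept only in the one without the third DBA/2J array at 5 days (adjusted p = 0.0179) and lost in 11 (up to 0.0658).

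Isg15 is a ubiquitin-like protein that is attached to other proteins, and Usp18 is the protease that takes it off and also damps the type I receptor. Isg15 read 6.89, 6.69 and 6.54 units in C57BL/6J controls, 6.86, 6.68 and 6.72 at 2 days and 8.65, 7.56 and 8.15 at 5 days, a rise of 1.41 units (SE 0.25, adjusted p = 0.0104) by 5 days. In DBA/2J it read 6.52, 6.40 and 6.79 units in the controls, 7.50, 6.98 and 6.71 at 2 days and 7.02, 7.51 and 6.90 at 5 days. Controls and 5 days did not overlap there either, with a difference of 0.57 units (adjusted p = 0.394). Most Isg15 levels were under 8 units, the mean over all probes of an array. Usp18 read 7.41, 7.22 and 7.22 units in C57BL/6J controls, 7.79, 7.12 and 7.29 at 2 days and 9.73, 8.68 and 9.22 at 5 days, and rose by 1.92 units (SE 0.36, adjusted p = 0.0145), or 1.99-fold, in that strain. Its DBA/2J values were 6.93, 7.17 and 7.01 units in the controls, 8.25, 7.79 and 7.02 at 2 days and 7.47, 8.78 and 7.40 at 5 days. All 3 DBA/2J arrays at 5 days were above all controls, without a call (adjusted p = 0.382). Both genes rose over the 2 strains together, by 0.99 (adjusted p = 0.00459) and 1.38 units (adjusted p = 0.00589).

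**Figure D2:**
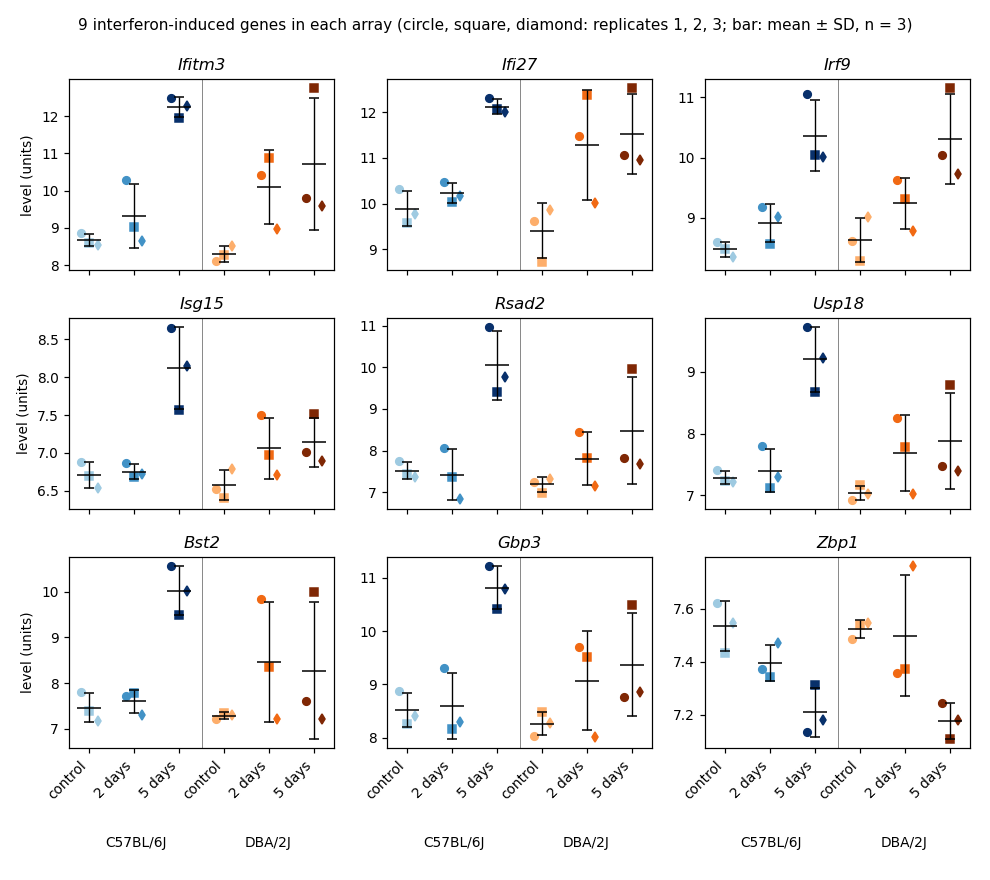
Level in units of 9 interferon-induced genes on each of the 18 arrays, by strain and time, with the replicates 1, 2 and 3 as circles, squares and diamonds and the mean ± SD of 3 arrays as bars. The C57BL/6J arrays at 5 days lie together above their controls for the 8 genes other than Zbp1, whereas in DBA/2J the square, the second array at 5 days, is the highest of its group for these 8 genes and for Bst2 reads 9.99 units against 7.59 and 7.22.

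Several members act on viral RNA. Rsad2 (viperin), which makes a chain-terminating nucleotide, read 7.74, 7.43 and 7.37 units in C57BL/6J controls, 8.07, 7.37 and 6.83 at 2 days and 10.97, 9.40 and 9.77 at 5 days, and rose by 2.53 units (SE 0.54, adjusted p = 0.0249), or 2.53-fold. In DBA/2J it read 7.25, 6.98 and 7.32 units in the controls, 8.44, 7.83 and 7.15 at 2 days and 7.82, 9.95 and 7.67 at 5 days. Of the 5-day arrays there, the second lay near the C57BL/6J values and the other 2 just above the highest control. Oasl2, a member of the oligoadenylate synthetase family, read 6.99, 7.18 and 6.995 units in C57BL/6J controls, 7.82, 6.83 and 6.51 at 2 days and 8.82, 8.29 and 8.77 at 5 days, and rose by 1.57 units (SE 0.33, adjusted p = 0.0231). The DBA/2J values of Oasl2 were 6.70, 6.55 and 6.80 units in the controls, 7.62, 7.28 and 6.83 at 2 days and 7.22, 8.25 and 7.07 at 5 days, without overlap between controls and 5 days. The synthetases Oas1a, Oas2 and Oas3 and the relative Oasl1 were under 8 units on all arrays, and none was called. Oasl1 lay below its controls in C57BL/6J at 5 days, at -0.28 units (adjusted p = 0.187). Samd9l, which restrains poxviruses and cell growth, read 8.12, 8.04 and 8.06 units in C57BL/6J controls, 8.19, 8.01 and 7.69 at 2 days and 9.90, 9.27 and 9.27 at 5 days, and rose by 1.41 units (SE 0.31, adjusted p = 0.0275). In DBA/2J Samd9l read 8.19, 7.59 and 7.81 units in the controls, 8.47, 8.49 and 7.84 at 2 days and 8.27, 9.49 and 8.13 at 5 days, and the 5-day arrays overlapped the controls.

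The Ifit proteins bind viral RNA and were measured at different strength. Ifit2 read 8.92, 8.65 and 8.86 units in C57BL/6J controls, 10.2, 9.16 and 8.82 at 2 days and 11.3, 10.4 and 10.6 at 5 days. Its DBA/2J values were 8.96, 8.58 and 8.60 units in the controls, 9.80, 9.81 and 8.52 at 2 days and 9.30, 10.8 and 8.84 at 5 days. It rose by 1.43 units (SE 0.33, adjusted p = 0.018) over both strains, a call lost without any 1 of the C57BL/6J controls, the first C57BL/6J array at 5 days, the first or second DBA/2J control or the second DBA/2J array at 5 days (adjusted p up to 0.0455). The brightest Ifit3 probe was not called, with 2.42 units (SE 0.62, adjusted p = 0.0307) over both strains. Its other 2 probes were called in C57BL/6J, at 3.211 and 3.203 units (adjusted p = 0.00269 and 0.0023), and were also higher at 5 than at 2 days, by 3.13 and 2.92 units (adjusted p = 0.0202 and 0.0248). Without the pair of 2-day arrays close to the other strain, the calls against 2 days were lost (adjusted p = 0.0466 and 0.0536). Those 2 probes read 9.92 to 11.1 units in C57BL/6J at 5 days and 7.68 to 8.78 in DBA/2J, while the brightest probe reached 11.9 units on the second DBA/2J array. Ifit3 has a near-identical copy, Ifit3b, so which copy a probe reads is uncertain. Ifit1 was at 5.92 to 6.71 units throughout and was not called.

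Large GTPases that attack the vacuoles of intracellular parasites are known mostly as targets of type II interferon. Gbp3, a guanylate-binding protein, read 8.88, 8.26 and 8.40 units in C57BL/6J controls, 9.30, 8.17 and 8.30 at 2 days and 11.2, 10.4 and 10.8 at 5 days, and rose by 2.30 units (SE 0.48, adjusted p = 0.0223). In DBA/2J it read 8.03, 8.47 and 8.28 units in the controls, 9.69, 9.52 and 8.01 at 2 days and 8.77, 10.5 and 8.86 at 5 days. Controls and 5 days did not overlap there, with a difference of 1.11 units (adjusted p = 0.384). Irgm1, a regulator of the other immunity-related GTPases, read 7.56, 7.58 and 7.42 units in C57BL/6J controls, 8.03, 7.65 and 7.11 at 2 days and 9.34, 8.72 and 8.68 at 5 days. The DBA/2J values of Irgm1 were 7.56, 6.87 and 7.20 units in the controls, 7.86, 7.68 and 7.12 at 2 days and 7.78, 9.64 and 7.48 at 5 days. It rose by 1.24 units (SE 0.30, adjusted p = 0.0245) over both strains, a call lost in the 9 fits without 1 of the controls of either strain or 1 of the C57BL/6J arrays at 5 days (adjusted p up to 0.0582). Igtp, with differences of 1.16 units in C57BL/6J and 0.95 in DBA/2J, lay above its controls 5 days after crush in both strains and was not called (adjusted p = 0.0664 over both strains). Gbp2, Ifi47, Iigp1 and Tgtp1 were not called, with differences of 0.14, 0.26, -0.15 and 0.14 units over both strains. Tgtp1 has a near-identical copy, Tgtp2, so its probe may read both. The GTPases Mx1 and Mx2, which stop viral polymerases, were not called either. Mx2 was 0.82 units above its controls in C57BL/6J at 5 days without overlap (adjusted p = 0.24), and Mx1, which carries a defect in most laboratory mouse strains, stayed at 6.46 to 7.20 units.

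Of the members that transmit the signal, Irf9, the DNA-binding part of ISGF3, had the smallest adjusted p over both strains. It read 8.60, 8.48 and 8.35 units in C57BL/6J controls, 9.18, 8.57 and 9.01 at 2 days and 11.1, 10.0 and 10.0 at 5 days. In DBA/2J Irf9 read 8.61, 8.29 and 9.01 units in the controls, 9.62, 9.32 and 8.79 at 2 days and 10.1, 11.2 and 9.73 at 5 days. The 5-day arrays lay above the controls and above the 2-day arrays in both strains. Irf9 rose by 1.88 units (SE 0.35, adjusted p = 0.0142) in C57BL/6J and by 1.78 units (SE 0.25, adjusted p = 0.00114) over both, and its difference in DBA/2J was 1.67 units (SE 0.35, adjusted p = 0.0678), the closest to the threshold of any member there. A dimmer Irf9 probe was also called over both strains, at 0.79 units (adjusted p = 0.0203). Stat2, the partner of Irf9, was 0.68 units above its controls in C57BL/6J at 5 days without overlap, and was not called (adjusted p = 0.294). Irf7, which drives the second wave of interferon genes, gave 0.72 units there (adjusted p = 0.119), and Irf1, a transcription factor induced by both types of interferon, 0.56 (adjusted p = 0.47).

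Among the sensors of nucleic acid 1 member was called. Zbp1, a sensor of Z-form nucleic acid that can trigger cell death, was the 1 member that fell by its brightest probe. It read 7.62, 7.43 and 7.55 units in C57BL/6J controls, 7.37, 7.34 and 7.47 at 2 days and 7.13, 7.31 and 7.18 at 5 days. Zbp1 in DBA/2J read 7.49, 7.54 and 7.55 units in the controls, 7.36, 7.37 and 7.76 at 2 days and 7.25, 7.11 and 7.18 at 5 days. Controls and 5 days did not overlap in either strain, the difference was -0.34 units over both (SE 0.08, adjusted p = 0.018), and all values were under 8 units. Of 12 fits without 1 array the call was kept in 3, those without the second C57BL/6J control, the second C57BL/6J array at 5 days or the third DBA/2J control, and lost in 9 (adjusted p up to 0.0473). A dimmer Zbp1 probe read 6.85, 6.86 and 6.875 units in C57BL/6J controls and 7.26, 6.90 and 6.63 at 5 days. In DBA/2J the dimmer probe read 6.81, 6.82 and 7.23 units in the controls and 6.81, 6.74 and 6.89 at 5 days. Its controls and 5-day arrays thus overlapped in both strains. The RNA helicases Ifih1 and Dhx58 were not called, at 0.08 and 0.35 units over both strains, nor was the ubiquitin ligase Trim25, which activates the helicase Ddx58, at 0.67 units (adjusted p = 0.105). Ddx58 itself, a gene outside the set, rose by 1.27 units (SE 0.26, adjusted p = 0.0227) in C57BL/6J, a call kept without the second array at 5 days and lost without any other 1 of the 6 arrays (adjusted p up to 0.0828).

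A further 3 members with other roles rose over both strains. Ifi27, a small hydrophobic membrane protein, read 10.3, 9.58 and 9.78 units in C57BL/6J controls, 10.5, 10.0 and 10.2 at 2 days and 12.3, 12.1 and 11.99 at 5 days. In DBA/2J it read 9.62, 8.73 and 9.87 units in the controls, 11.5, 12.4 and 10.0 at 2 days and 11.1, 12.5 and 10.95 at 5 days. All 6 DBA/2J arrays after crush were above all 3 controls, and 1 of the 6, the first at 2 days, lay near C57BL/6J at Glo1. Ifi27 rose by 2.17 units (SE 0.36, adjusted p = 0.00276), or 2.25-fold, with similar differences in the 2 strains (2.23 and 2.11 units), and its call held in all 12 fits without 1 array. Lgals3bp, a secreted glycoprotein that binds galectins, read 8.41, 8.02 and 8.06 units in C57BL/6J controls, 10.3, 7.92 and 7.35 at 2 days and 11.5, 10.3 and 11.3 at 5 days. Lgals3bp in DBA/2J read 7.58, 7.43 and 7.56 units in the controls, 9.87, 8.54 and 7.46 at 2 days and 8.17, 9.91 and 8.04 at 5 days. It rose by 2.03 units (SE 0.49, adjusted p = 0.0243) over both strains, a call kept without the second C57BL/6J or the third DBA/2J array at 5 days and lost in the other 10 fits (adjusted p up to 0.0599). Parp9, an ADP-ribosyltransferase family member that works with the ubiquitin ligase Dtx3l, read 8.27, 7.85 and 8.31 units in C57BL/6J controls, 8.92, 8.01 and 7.68 at 2 days and 9.90, 9.41 and 9.61 at 5 days. The DBA/2J values of Parp9 were 7.60, 7.65 and 7.67 units in the controls, 8.56, 8.40 and 7.77 at 2 days and 7.92, 9.76 and 8.01 at 5 days. It rose by 1.21 units (SE 0.29, adjusted p = 0.0212) over both strains, a call lost in the 9 fits without 1 of the controls of either strain or 1 of the C57BL/6J arrays at 5 days (adjusted p up to 0.0517). Parp14 differed from its controls by 0.92 units (SE 0.31, adjusted p = 0.125) in C57BL/6J at 5 days. Dtx3l itself differed by -0.30 units (SE 0.13, adjusted p = 0.216), on the other side of 0 from Parp9. Ifi35, Isg20, Rtp4 and Xaf1 were not called, at 0.34, -0.04, 0.00 and -0.02 units over both strains.

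In DBA/2J at 5 days, limma and SAM called 0 of 42 members, where limma called 0.113% of all genes in either direction. At an unadjusted p under 0.05, 14 members were higher and 2 were lower, against 5.19% of all genes higher and 7.9% lower. All 3 arrays lay above all 3 controls for 17 of 42 members, against 6.78% of all genes. The mean over the members was 7.54, 7.44 and 7.53 units in the controls and 7.79, 8.76 and 7.74 units at 5 days. The second array was the highest of the 3 for 30 of 42 members. It lay over 1 unit above every control for 20 members, where the first and the third arrays did so for 3 and 2. For comparison, the 3 C57BL/6J arrays at 5 days did so for 18, 15 and 16 members. These counts by array were made for the members only, so no share over all genes stands beside them. The spread of signal was 13.3 on the second DBA/2J array and 10.4 and 8.89 on the first and the third, and its part in these counts was not tested. The difference of Ifitm3 in DBA/2J was 2.42 units with all arrays and 1.39 at the lowest when 1 array was left out.

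**Figure D3:**
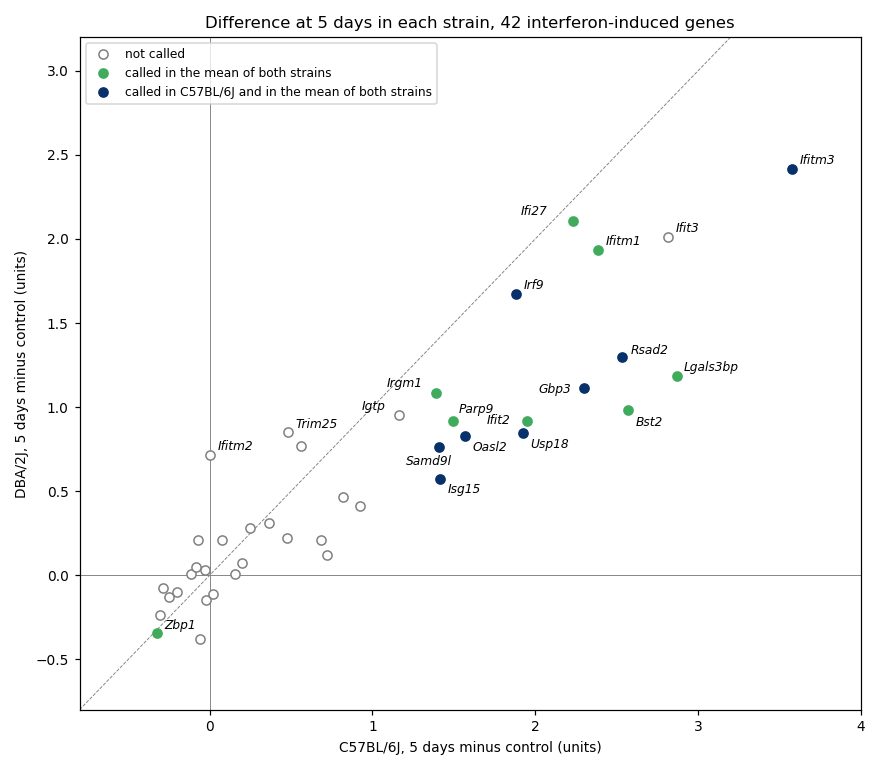
Difference between 5 days and control in units for each of the 42 members, in C57BL/6J on the horizontal axis and DBA/2J on the vertical axis, with filled points for called members and a dashed line where both strains would be equal. Ifitm3 lies at 3.58 and 2.42 units, and Ifi27 and Irf9 lie near the line while Bst2, Lgals3bp and Rsad2 lie below it.

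The strain difference itself was tested for every member. Limma called 0 of 42 for the change at 5 days (0% of all genes) and 0 of 42 for the change at 2 days (0%), with few members at an unadjusted p below 0.05. At 5 days 1 member was lower in DBA/2J at that level, where 1.78% of all genes were, and at 2 days 2 members were higher and 1 lower, where 1.41% and 2.72% of all genes were. The same numbers of members passed without the pair of 2-day arrays close to the other strain. The largest difference between the strains at 5 days was that of Lgals3bp, -1.68 units (SE 0.99, adjusted p = 0.999), and that of Bst2 was -1.59 units (SE 0.90, adjusted p = 0.999). With these standard errors, differences of over 1 unit between the strains could not be told from 0, so a like response in both strains is not shown either.

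At 2 days the strains and arrays were less even. In C57BL/6J limma called 0 of 42 members (0.0453% of all genes), with 0 members up and 1 down (4.45% of all genes) at an unadjusted p below 0.05, and SAM called 0. For 0 members did all 3 arrays lie above all 3 controls, against 6.31% of all genes. Without the third array, which lay near DBA/2J, 4 members did so on the 2 arrays left, against 9.72%, and at the unadjusted level 0 were up and 1 down. The first array was the highest for 30 of 42 members, and read 10.3 units for Ifitm3 and 10.3 for Lgals3bp where the second and the third read 9.03 and 8.65 and 7.92 and 7.35. The first array was also the highest of its group for 23 members in the C57BL/6J controls and for 29 at 5 days, so this order was not particular to 2 days. How often it was the highest over all genes was not counted. In DBA/2J limma and SAM called 0 of 42 (limma called 0% of all genes), with 4 up (2.49% of all genes) and 1 down (5.01%) at an unadjusted p below 0.05 and 1 up (1.86%) and 1 down (5.17%) without the pair of 2-day arrays close to the other strain. On all 3 arrays, 9 members lay above all controls, Ifi27, Ifi35, Ifit3, Ifitm1, Ifitm2, Ifitm3, Oas2, Oasl2 and Parp9, against 4.11% of all genes. Among them Ifi27 differed by 1.87 units (SE 0.50, adjusted p = 0.555), Ifitm3 by 1.79 and Ifitm1 by 1.62 units. Without the first DBA/2J array, which lay near C57BL/6J, the difference of Ifi27 was 1.78 and that of Ifitm3 1.63 units, and 11 members lay above all controls on the 2 arrays left, against 9.31% of all genes. Over both strains at 2 days limma called 0 members (0.334% of all genes), with 2 up (5.15% of all genes) and 0 down at an unadjusted p below 0.05, the same numbers as without the pair.

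The step from 2 to 5 days was then compared within each strain. In C57BL/6J limma called 0 of 42 (0.0453% of all genes) and SAM 3, but 18 members were higher at an unadjusted p under 0.05, against 4.13% of all genes. For 18 members all arrays at 5 days lay above all arrays at 2 days, against 3.67% of all genes, and Ifitm3 was 2.93 units higher (adjusted p = 0.159). Without the pair of 2-day arrays close to the other strain these counts were 15 at the unadjusted level, against 4.16% of all genes, and 21 without overlap, against 5.87%. In DBA/2J limma and SAM called 0 of 42 (0% of all genes), with 1 up (2.12% of all genes) and 1 down (2.34%) at an unadjusted p below 0.05. On all 3 arrays at 5 days 2 members, Irf9 and Rtp4, lay above all 2-day arrays, against 4.64% of all genes, and without the pair 3 members did, against 10.13%. The strain difference of this step was called for 0 of 42 members (0.00566% of all genes). At an unadjusted p under 0.05 it was lower in DBA/2J for 11 members, against 2.48% of all genes, and without the pair of 2-day arrays close to the other strain for 2 members, against 1.99%. Most of these differences therefore did not reach that level without those arrays. The median of this difference over the members was -0.39 units with them and -0.23 units without.

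The uninjured retinas of the strains were compared next. Limma and SAM called 0 of 42 members between the controls (limma called 0.0113% of all genes), with 1 of them lower (3.82% of all genes) and 0 higher in DBA/2J at an unadjusted p below 0.05. In all, 11 members lay lower on all 3 DBA/2J controls than on all 3 C57BL/6J controls, against 6.73% of all genes. They were Ifitm1, Ifitm2, Ifitm3, Igtp, Lgals3bp, Oas2, Oasl2, Parp9, Rsad2, Trim25 and Usp18. Trim25 had the largest such difference, at 10.8, 9.92 and 10.6 units in DBA/2J against 11.8, 11.4 and 11.3 in C57BL/6J, or -1.003 units (SE 0.34, adjusted p = 0.395). Lgals3bp differed by -0.64 and Ifitm1 by -0.66 units. Mx1 was the 1 member that was higher on all 3 DBA/2J controls, by 0.17 units, where 7.18% of all genes were higher in this way.

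The ligands were dim on every array. Of 20 interferon genes listed, 19 had a probe, and all 19 were under 8 units on all 18 arrays. At 5 days 0 were called in either strain. At an unadjusted p below 0.05, 0 were higher and 3 lower in C57BL/6J, against 7.92% and 13.9% of all genes. In DBA/2J 0 were higher or lower at that level, against 5.19% and 7.9% of all genes. Their median difference in C57BL/6J at 5 days was -0.077 units, and that over all genes was -0.081. In C57BL/6J their mean was 6.87 to 6.97 units without crush and 6.71 to 6.85 at day 5, so no interferon probe left the dim range. Of 17 receptors and signalling genes measured, 1 rose and 1 fell over both strains at 5 days, against 2.81% and 3.56% of all genes. Socs3, which damps Janus kinases and also answers cytokines other than interferons, rose by 1.85 units (SE 0.47, adjusted p = 0.0294), with 12.6 units on the second DBA/2J array at 5 days against 9.27 and 8.58 on the other 2. Irf3, which switches on interferon genes, fell by 0.68 units (SE 0.15, adjusted p = 0.016). The call of Socs3 was lost in the 9 fits without 1 of the controls of either strain or 1 of the C57BL/6J arrays at 5 days (adjusted p up to 0.068) and also without the pair of 2-day arrays close to the other strain (0.0452). The call of Irf3 was lost in 7 fits, those without the first or the third control of either strain, the second or the third C57BL/6J array at 5 days or the second DBA/2J array at 5 days (up to 0.0433).

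Genes known to respond to interferon but outside the set were also called in C57BL/6J. Of 46 measured, 8 rose at 5 days in C57BL/6J (0.923% of all genes), 9 rose over both strains (2.81%) and 0 fell. In DBA/2J alone 0 were called (0.113% of all genes in either direction). There 11 were up (5.19% of all genes) and 2 down (7.9%) at an unadjusted p below 0.05. The 4 with the smallest adjusted p in any contrast were Trim30a, a ubiquitin ligase that damps inflammatory signalling, Cxcl10, the chemokine that draws T cells, Shisa5, and Uba7, the enzyme that activates Isg15. Trim30a read 6.96, 7.15 and 7.36 units in C57BL/6J controls, 7.35, 7.20 and 6.84 at 2 days and 9.66, 9.07 and 8.89 at 5 days, a rise of 2.05 units (SE 0.21, adjusted p = 0.000333). In DBA/2J it read 7.17, 7.15 and 7.10 in the controls, 7.82, 7.66 and 7.25 at 2 days and 6.98, 7.39 and 6.75 at 5 days. All 3 DBA/2J arrays at 2 days, of which the first lay near C57BL/6J at Glo1, were above their controls. The DBA/2J arrays at 5 days overlapped the controls. The strain difference of the change of Trim30a at 5 days was -2.15 units (SE 0.30) and was not called (adjusted p = 0.175). Cxcl10 stood at 7.96, 7.99 and 8.83 units in C57BL/6J at 5 days and 6.49, 6.39 and 6.47 in DBA/2J, and rose by 1.59 units (SE 0.20, adjusted p = 0.00149) in C57BL/6J. The strain difference of the change of Cxcl10 at 5 days was -1.72 units and was not called (adjusted p = 0.554). Shisa5 and Uba7 rose by 1.42 and 1.20 units over both strains (adjusted p = 0.00115 and 0.00157), and both read higher than their controls on all 3 DBA/2J arrays at 5 days.

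Markers of microglia and macrophages were high on the same arrays at 5 days. Of 20 listed, 17 were measured and 6 of these were under 8 units on all arrays. In C57BL/6J their mean was 7.27 to 7.33 units without crush and 8.21 to 8.46 at day 5, and in DBA/2J 7.09 to 7.17 without crush and 7.51, 8.39 and 7.50 on the 3 arrays at 5 days in order of their number. The second DBA/2J array was thus the high one for these markers as it was for the interferon-induced genes. Differences at 5 days were above 0 for 13 of the 17 in C57BL/6J (median 0.85 units) and for 15 in DBA/2J (median 0.73 units). In C57BL/6J at 5 days 4 of the 17 rose, against 0.923% of all genes, and over both strains 7 rose, against 2.81%. The 4 in C57BL/6J were Mpeg1 with 3.06 units (SE 0.43, adjusted p = 0.00301), C1qc with 2.13, C1qb with 1.95 and Cx3cr1 with 0.85 units (adjusted p = 0.0129, 0.0145 and 0.00675). The calls of C1qb and C1qc were kept without the second array at 5 days and lost without any other 1 of the 6 arrays (adjusted p up to 0.0581 and 0.0503), and that of Cx3cr1 was lost without the first control (0.0383). Their part in the result on the interferon-induced genes was not tested. On the 3 DBA/2J arrays at 2 days the markers read 7.45, 7.60 and 7.45 units and the members 8.09, 7.99 and 7.54. The first of these arrays lay near C57BL/6J, and on the other 2 both lists were higher on the second. On the C57BL/6J arrays at 2 days the markers read 7.53, 7.61 and 7.24 units and the members 8.06, 7.63 and 7.54. There the members were highest on the first array and the markers on the second. Of the markers of lymphocytes and NK cells 13 of 14, and of neutrophils 9 of 9, were under 8 units on all arrays, and 0 of either list were called at 5 days.

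Some markers of other retinal cell types were called at 5 days over both strains too, where 2.81% of all genes were called higher and 3.56% lower. Of 12 markers of Mueller glia and astrocytes 3 rose over both strains, Gfap, the intermediate filament of reactive glia, by 2.51 units (SE 0.42, adjusted p = 0.00297), Aqp4, a water channel, by 1.34 and Clu, a secreted chaperone, by 0.86 units (adjusted p = 0.0144 and 0.02). In C57BL/6J the mean of this list was 11.6 to 11.8 units without crush and 11.9 to 12.05 at day 5, and in DBA/2J 11.5 to 11.7 and 11.8 to 12.06. The difference at 5 days was above 0 for 7 of the 12 in C57BL/6J (median 0.33 units) and for 5 in DBA/2J (median -0.05 units), so the list did not move as 1. Of 12 ganglion cell markers 4 fell, Thy1, Rbpms, Chrna6 and Chrnb3. The mean of the 12 was 10.7 to 11.1 units in C57BL/6J without crush and 9.61 to 10.05 at day 5, and 10.8 to 10.95 and 10.06 to 10.2 in DBA/2J. Of 13 photoreceptor markers 1, Cnga1, rose and 3, the cone genes Arr3, Opn1mw and Pde6h, fell. Of 11 markers of endothelium and pericytes Rgs5 rose, by 1.01 units (adjusted p = 0.00282). The difference at 5 days was above 0 for 5 of these 11 in C57BL/6J (median -0.02 units) and for 6 in DBA/2J (median 0.05 units). The 6 markers of plasmacytoid dendritic cells include the members Bst2 and Irf7, and Bst2 was the 1 called. Their mean was 8.67 to 8.76 units in C57BL/6J without crush and 9.12 to 9.48 at day 5, and 8.53 to 8.63 in DBA/2J without crush and 8.76, 9.51 and 8.74 on its 3 arrays at day 5. In C57BL/6J 4 of the 6 differed by more than 0 at 5 days, Bst2 and Irf7 among them, and in DBA/2J 5 did. A mean without Bst2 and Irf7 was not computed, so this mean does not show that the other markers were higher. The part of these lists in the result on the interferon-induced genes was not tested.

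**Figure D4:**
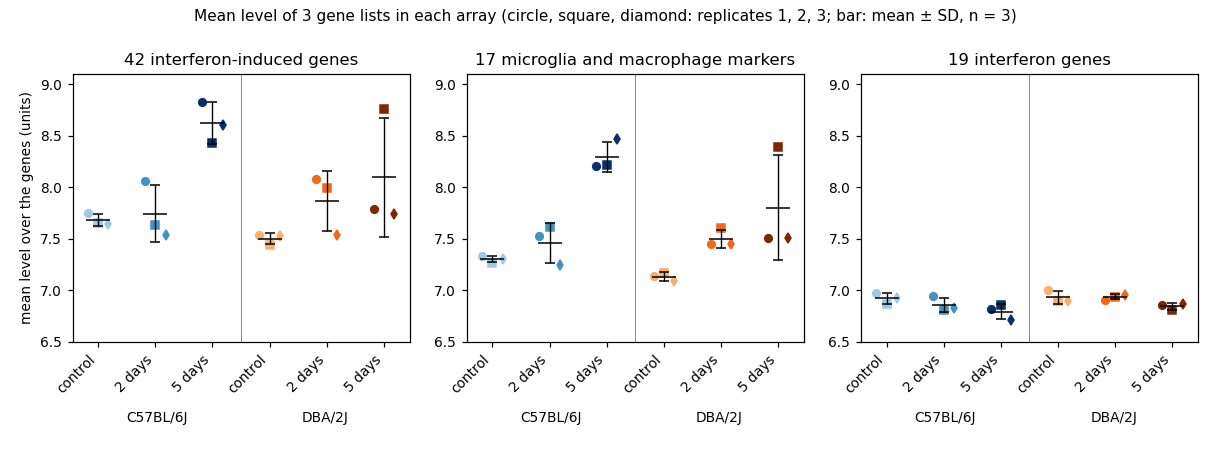
Mean level in units over 42 interferon-induced genes, 17 microglia and macrophage markers and 19 interferon genes on each array, with replicates as in the plot of single genes and bars for the mean ± SD of 3 arrays. The panels of the members and of the microglia and macrophage markers are high on all 3 C57BL/6J arrays at 5 days and on the second DBA/2J array at 5 days, and the interferon genes stay between 6.71 and 7.01 units.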

How the data were processed

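Each of 18 Illumina mouse BeadChip arrays (Sentrix Mouse-6) carried RNA pooled from 2 retinas. The authors deposited non-normalized probe intensities, whose background correction is not given in the sources used here, and scores, which they made by turning the log2 intensity of each array into a z-score, multiplying it by 2 and adding 8. The same score was computed from the deposited intensities for 46116 probes, and 99.74% of probes came within 0.02 of the deposited scores. A gene was read by its brightest probe on average. The platform annotation gave 1 symbol to 29534 probes, several to 11 and none to 16571.

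The 6 group means were fitted in 1 model with limma 3.58.1 in R 4.3.3 (12 residual and 2.88 prior degrees of freedom), with p-values adjusted by Benjamini-Hochberg over all probes for each of 12 contrasts, at the study's threshold of 0.03, and the script was tested on simulated data. The p-values measure the spread between pooled samples. SAM, the test of the methods, was an alternative for contrasts of 2 groups. The others were quantile normalization, normexp with an offset of 50, the deposited scores, the brighter 23058 probes, an intensity trend, the replicate number as a block, a threshold of 0.05, only the arrays compared, any probe of a gene, and each array left out. Leaving out the 2 arrays near the other strain was added after the data were seen. Members and lists were chosen with earlier results of these data known. Members called in any contrast, 16 in all, are given on every array, and up to 4 called genes of each other list are named. Which of the 3 BeadChips an array lay on is not given in the sources used here. Arrays do not count molecules, so their number, 3 a group, limits the precision. Promoter windows are those of RefSeq.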

Additional observations from a re-analysis of the deposited data

Results flagged for a closer look

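The difference between the strains in the step from 2 to 5 days passed the test for Trim30a, an interferon-responsive gene outside the set of 42. Its level went from 7.35, 7.20 and 6.84 units at 2 days to 9.66, 9.07 and 8.89 at 5 days in C57BL/6J and from 7.82, 7.66 and 7.25 to 6.98, 7.39 and 6.75 in DBA/2J. The difference was -2.613 units in DBA/2J relative to C57BL/6J (SE 0.303, limma adjusted p = 0.0165). Without the pair of 2-day arrays close to the other strain it was -2.35 units and missed the threshold (adjusted p = 0.293). Over the fits without 1 array it was -2.79 to -2.39 units, with an adjusted p of 0.0118 to 0.0981. The call was lost in 8 of 12 such fits, those without the second or the third C57BL/6J array at 2 days, the first or second C57BL/6J array at 5 days, the first or second DBA/2J array at 2 days, or the first or the third DBA/2J array at 5 days. Over all alternatives the adjusted p of Trim30a was 0.0026 to 0.568.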

How the results depend on the processing

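In C57BL/6J at 5 days the count of called members was 8, and it became 4 after quantile normalization, 13 at a threshold of 0.05, 14 with only the arrays of the groups compared, 15 with SAM and 0 to 3 when 1 array was left out. In C57BL/6J between 2 and 5 days the count of 0 became 3 with SAM, 1 with any probe of a gene, and 0 to 1 without 1 array (1 without the first array at 2 days or the second at 5 days). Over both strains at 5 days the count of 16 became 10 to 16 without 1 array and 13 to 17 otherwise. The cause of these moves was not tested. Shares of all genes are not given for these settings, so whether a move was particular to the members is not shown. The other 9 counts were 0 in every setting run. SAM gave no value for contrasts of more than 2 groups. With the replicate number as a block the counts were 11 in C57BL/6J at 5 days and 17 over both strains, and no other count moved. Arrays of the same number deviated together in all 3 pairs only between C57BL/6J control and 2 days (r = 0.266 to 0.479) and between DBA/2J 2 and 5 days (0.128 to 0.271), and the sources used here do not say what the number means. Of single members over both strains, 273 of 336 values kept their side of the threshold and 63 lost it, with no change of direction. In C57BL/6J at 5 days 180 of 256 kept it, 52 lost it and 24 gained it. Of the other genes 1 value changed direction: Trim30a in DBA/2J at 5 days, -0.10 units, was -0.27 to 0.045 units without 1 array, and above 0 only without the third array at 5 days. Dim signal limits the ligands and 15 of 42 members, which stayed under 8 units on all arrays, and the deposited files used here give no detection call.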
